A study of Apis mellifera with 25 samples.

Results

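The comparison concerned 3 honey bee workers (Apis mellifera) with active ovaries and 3 with inactive ovaries whose library titles begin with 894. These libraries were chosen by title alone and make up 6 of the 25 libraries of the series, with 1 bee per library and 15314 genes in the count table. Both groups were adult workers more than 18 days past emergence. The bees came from reciprocal crosses of Africanized with European bees, had lived for about 18 days in colonies that lacked a queen, and were assigned to a status by dissection. RNA was taken from the gutted abdomen of single bees, with fat body and ovaries attached. The labels state neither what the number 894 stands for nor which lineage supplied the queen, so the number is called a title prefix here. The other 19 libraries carry the prefixes 875, 882 and 888 and comprise 9 bees with active and 10 with inactive ovaries.

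In a colony with a queen, pheromones of the queen and the brood keep the ovaries of workers small and without growing eggs. Without a queen, some workers grow their ovarioles, take up yolk protein and lay unfertilised eggs, which develop into drones. The fat body, the insect counterpart of liver and adipose tissue, makes vitellogenin, the main yolk precursor, and in workers makes much of it whether or not eggs are growing. An active ovary adds germ cells, nurse cells and follicle cells to the RNA of an abdomen.

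Allele reads showed that the 6 bees belong together. At single-nucleotide positions with at least 20 reads in both libraries, the share of D reads (one of the deposited allele counts, which the headers do not define) was compared between bees. Across positions its Pearson correlation was 0.705 to 0.789 between bees of prefix 894 and 0.227 to 0.543 between these bees and bees of the other prefixes, over 9344 to 30749 positions per pair. The D share of all reads at positions in genes did not separate the statuses, at 52.2% ± 0.309 with active and 52.2% ± 0.685 with inactive ovaries (SD, n = 3 each, exact permutation test, two-sided p = 1).

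Total counts were 29169888, 27611076 and 27928251 with active ovaries and 33106507, 37661989 and 8614986 with inactive ovaries. The shallow library, inactive replicate 3, also stood apart in expression, as described below, and values without it are given beside the main results within prefix 894. No identifier of the count table (0 of 15314) matched the available reference gene table, so genes are given by their identifiers. The planned gene lists and the markers of fat body, ovary and other tissues could not be looked up, and the labelled tissue could not be checked against them.

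No gene passed the test between ovary statuses within prefix 894. Of 13276 genes tested, 0 were called (0%; edgeR quasi-likelihood test, Benjamini-Hochberg adjusted p under 0.05), and the smallest adjusted p was 0.999. An unadjusted p under 0.05 was found for 237 genes, which is 1.79% of those tested, 76 of them higher (0.572%) and 161 lower (1.21%) with active ovaries. This split turned round without active replicate 1 (128 higher and 115 lower) and without active replicate 2 (174 higher and 124 lower). The share of 1.79% lay below 0.05, the average share of genes under that threshold where none differs. limma-voom also called 0 genes, with 204 at an unadjusted p under 0.05. DESeq2 called 3, all lower with active ovaries. Fewer cells of a type and less RNA per cell cannot be told apart in RNA from whole abdomens.

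The differences were small for most genes. The median absolute log2 change was 0.20, and 69.5% of genes differed by less than 1.25-fold. A change of at least 2-fold was estimated for 294 genes (2.21%), 123 higher (0.926%) and 171 lower (1.29%) with active ovaries, and a change of at least 4-fold for 12 higher and 15 lower genes. The median log2 change of all genes was -0.0053, so the estimates were centred near 0. Prefix 875, fitted the same way on its own libraries, also gave 0 calls, with a median absolute log2 change of 0.26 and 635 genes at least 2-fold apart. In prefix 882 the median was 0.43 and 2152 genes were at least 2-fold apart, and in prefix 888 these values were 0.70 and 4476. No test compared these distributions, and the test of the difference gene by gene is given further on. The values of prefixes 882 and 888 include inactive libraries that were less like the rest of their prefix by allele shares, as described there.

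**Figure D1:**
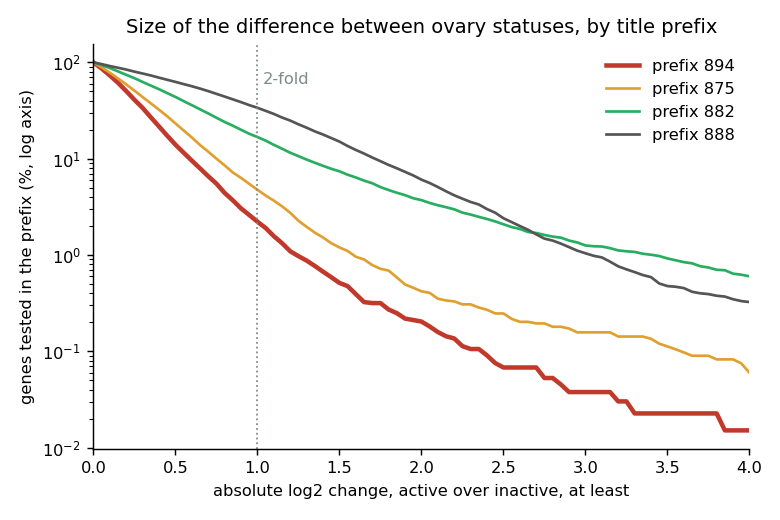
Share of the genes tested within a title prefix (y axis, percent, log scale) whose absolute log2 change between active and inactive ovaries is at least the value on the x axis. At 2-fold, marked by the dotted line, prefix 894 has 2.21% of its genes, prefix 875 has 4.75%, prefix 882 has 16.8% and prefix 888 has 33.8%. Prefixes 882 and 888 include inactive libraries less like the rest of their prefix by allele shares.

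The spread between bees was measured in each prefix. The common biological coefficient of variation, the spread between bees of a status beyond counting error, was 0.310 in prefix 894, against 0.476 in prefix 875, 0.367 in prefix 882 and 0.383 in prefix 888. The median standard error of a log2 change was 0.31 in prefix 894, against 0.50, 0.32 and 0.40 in prefixes 875, 882 and 888. Without inactive replicate 3 the coefficient of prefix 894 was 0.269. For 7812 genes (58.8%) the 95% interval of the change lay wholly within 2-fold in either direction. For the other 5464 genes it reached or passed 2-fold in a direction, so these data do not exclude a change of that size there. In prefix 875, which also gave 0 calls, the interval lay within 2-fold for 1021 genes (7.64%).

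Abundance set how tightly a gene was bounded. Among the 1309 genes at 100 CPM or more (CPM, counts scaled to a common library total), the median absolute log2 change was 0.16 and the interval lay within 2-fold for 81.9%. Among the 5950 genes from 10 to 100 CPM these values were 0.17 and 80.7%. They were 0.25 and 40.4% among the 4778 genes from 1 to 10 CPM, and 0.36 and 0.726% among the 1239 genes under 1 CPM. Genes at least 2-fold apart lay mostly in the lower classes, with 12 of the 294 (5 higher and 7 lower) at 100 CPM or more.

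Bees of the same status were, on average, no closer to each other than bees of different status. The distance between 2 libraries was taken as the root mean square difference in log2 CPM over all genes tested. It averaged 0.666 over the 9 pairs of different status and 0.700 over the 6 pairs of the same status, a difference of -0.034 (exact permutation test, two-sided p = 0.2, where 0.1 is the smallest p this design allows). The difference turned to 0.042 without inactive replicate 1 (exact permutation p = 0.9) and to 0.028 without inactive replicate 2 (exact permutation p = 0.8), and it was -0.029 without inactive replicate 3 (exact permutation p = 0.3). The nearest pair was active replicate 3 with inactive replicate 1, at 0.488.

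Inactive replicate 3 was the farthest from the other bees. Its mean distance to them was 0.862, against 0.584 to 0.688 for the other 5 bees. It was the library farthest from the median of the 6 in 39.6% of genes. With all 6 libraries thinned at random to its total count, its mean distance was still the largest, at 0.824 against 0.606 to 0.708. The first principal component, with 45.2% of the variance, separated it from the rest, with a score of 73.5 against -30.0 to 1.14. The difference between statuses on that component had an exact permutation p of 0.9. Of the 5 components compared, component 4, with 9.72% of the variance, had an exact permutation p of 0.1, the smallest this design allows. On the others the exact permutation p was 0.3 or more.

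**Figure D2:**
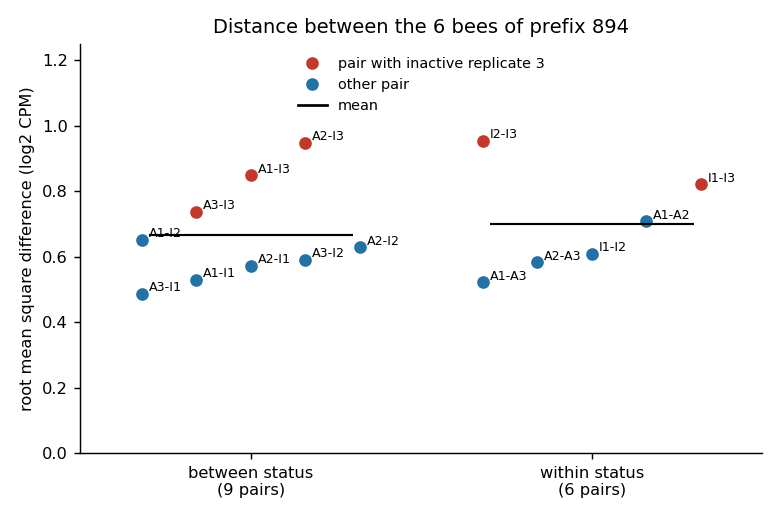
Root mean square difference in log2 CPM (y axis) for each pair of the 6 bees of prefix 894, for pairs of different and of the same ovary status, with the mean as a line. A marks active and I inactive replicates by number. The pairs with inactive replicate 3 lie between 0.737 and 0.954, and all others between 0.488 and 0.709.

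In 4 of the 6 bees, more genes were at least 2-fold away from both others of the same status than the 294 genes at least 2-fold apart between statuses. These are unlike measures, since single bees vary more than the means of 3 bees that the 294 genes compare. Inactive replicate 3 was at least 2-fold above both other inactive bees in 1057 genes and at least 2-fold below both in 510 (11.8% of genes together). For the other 5 bees the genes at least 2-fold away from both others of their status numbered 172 to 542, the fewest in active replicate 3. Of the 123 genes at least 2-fold higher with active ovaries, 58 had their highest value in active replicate 1, 40 in replicate 2 and 25 in replicate 3. Of the 171 at least 2-fold lower, 104 had their highest value in inactive replicate 3, 44 in replicate 2 and 23 in replicate 1. Without inactive replicate 3, 0 genes were called by edgeR with 387 at an unadjusted p under 0.05, and 189 genes were at least 2-fold higher and 119 at least 2-fold lower. The median absolute log2 change was then 0.19, and 8603 intervals lay within 2-fold.

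All 3 active bees lay above all 3 inactive bees in 271 genes (2.04%) and below them in 524 (3.95%), together 5.99% of genes. For a gene unrelated to status, 3 bees against 3 separate in either direction with probability 0.1. The share of 5.99% did not exceed this. The median log2 change was 0.50 among the 271 genes and -0.45 among the 524. Both values follow from the choice of genes without overlap. At least 2-fold changes without overlap were found in 72 genes, 30 higher and 42 lower, so 222 of the 294 genes at least 2-fold apart had overlapping groups.

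Genes without overlap and with an average log2 CPM of at least 4 are named by their smallest p. GB40635, with positions from 1437332 to 1437588 on scaffold Group12.13, stood at 7.20, 6.64 and 7.70 CPM with active and at 21.7, 50.6 and 17.0 CPM with inactive ovaries. The active bees were closely alike, and inactive replicate 2 was the highest. Its log2 change was -2.06 (SE 0.39, 95% interval -2.91 to -1.21, edgeR unadjusted p = 0.00028, adjusted p = 0.999). DESeq2 called it with an adjusted p of 0.00264, and over the alternatives tried the adjusted p ran from 0.00264 to 0.9999 while the change stayed between -2.33 and -1.43. The other prefixes, fitted together without prefix 894, did not call GB40635, with a log2 change of -0.19 (SE 0.24, edgeR adjusted p = 0.616). Each fitted alone, prefixes 875, 882 and 888 gave 0.11, 0.07 and -0.83. In 888 the groups did not overlap, at 10.98 to 12.7 CPM with active and 17.3 to 22.9 CPM with inactive ovaries. The change of GB40635 in 894 did not pass the test of a difference from the other prefixes (edgeR adjusted p = 0.407). The other 2 genes called by DESeq2, named after their values were seen, were GB43276 (log2 change -1.38, DESeq2 adjusted p = 0.0219) and GB55935 (-2.74, DESeq2 adjusted p = 0.037). GB43276 stood at 7.14, 7.99 and 10.5 CPM with active and at 27.4, 17.7 and 21.4 CPM with inactive ovaries.

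GB48960, with 55 positions from 1119482 to 1136303 on scaffold Group1.15, had 19.4, 24.5 and 29.3 CPM with active and 56.2, 45.0 and 56.7 CPM with inactive ovaries. The groups were well apart and each was narrow, with a log2 change of -1.11 (SE 0.24, 95% interval -1.64 to -0.58, edgeR unadjusted p = 0.000798, adjusted p = 0.999). In prefixes 875, 882 and 888, fitted without prefix 894, GB48960 was called lower with active ovaries with a log2 change of -1.75 and a standard error of 0.40 (edgeR adjusted p = 0.00482), and the change in 894 did not pass the test of a difference from theirs (edgeR unadjusted p = 0.376).

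On the higher side the margins were thin. GB45495 had 165, 215 and 365 CPM with active and 163, 118 and 117 CPM with inactive ovaries, with a log2 change of 0.90 (SE 0.31, edgeR unadjusted p = 0.0148, adjusted p = 0.999). Active replicate 1 and inactive replicate 1 were nearly level. The change was 0.52 without active replicate 3. GB43686 had 59.3, 26.4 and 24.9 CPM with active and 24.85, 11.4 and 9.61 CPM with inactive ovaries, with a log2 change of 1.25 (SE 0.44, edgeR unadjusted p = 0.0167, adjusted p = 0.999). Again inactive replicate 1 reached the level of the lowest active bee, and the change was 0.73 without active replicate 1. Both were called higher with active ovaries in the other prefixes, GB43686 by 3.11 (SE 0.43, edgeR adjusted p = 0.000112) and GB45495 by 0.98 (SE 0.32, edgeR adjusted p = 0.0359).

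The largest estimated changes rested on single bees. GB52186 had 0.973, 104 and 2.02 CPM with active and 0.747, 0.725 and 2.31 CPM with inactive ovaries. Only active replicate 2 was high, and the log2 change of 5.04 (SE 2.28, edgeR adjusted p = 0.999) was 0.37 without it. GB52831 had 1.88, 0.944 and 0.723 CPM with active and 116, 0.915 and 2.55 CPM with inactive ovaries. Here inactive replicate 1 alone was high, and the change of -5.07 (SE 2.17, edgeR adjusted p = 0.999) was -0.47 without it. GB48079 had 23.7, 181 and 8.35 CPM with active and 14.9, 1.04 and 5.90 CPM with inactive ovaries, a change of 3.27 (SE 1.59, edgeR adjusted p = 0.999) that was 1.14 without active replicate 2. GB41428 was less dependent on a single bee, at 16.8, 38.9 and 8.74 CPM with active and 92.6, 231 and 37.7 CPM with inactive ovaries. Its groups met at active replicate 2 and inactive replicate 3, and its log2 change was -2.49 (SE 0.76, edgeR unadjusted p = 0.0128, adjusted p = 0.999), between -3.22 and -1.61 when any bee was left out. The other prefixes called GB52831 in the opposite direction, higher with active ovaries by 5.22 (SE 1.30, edgeR adjusted p = 0.0107). They did not call GB41428 (3.18, edgeR adjusted p = 0.083), GB48079 (1.22, edgeR adjusted p = 0.658) or GB52186 (-0.03, edgeR adjusted p = 0.991). These joint values combine unlike changes. In prefixes 875, 882 and 888, each fitted alone, GB52186 changed by 3.16, 0.45 and -6.02. GB48079 changed by 4.99, 1.56 and -5.59, and GB41428 by 5.44, 3.68 and -0.44.

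The most variable gene of that abundance within a status was GB52832. It had 491, 4.97 and 7.77 CPM with active and 447, 6.21 and 5.67 CPM with inactive ovaries, so 1 bee of each status was high and the rest were low. Its SD of log2 CPM within status was 3.62 and its log2 change 0.13 (SE 2.56). GB46084, next in that order, had 490, 6.86 and 26.9 CPM with active and 0.881, 119 and 2.43 CPM with inactive ovaries, and the groups overlapped.

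**Figure D3:**
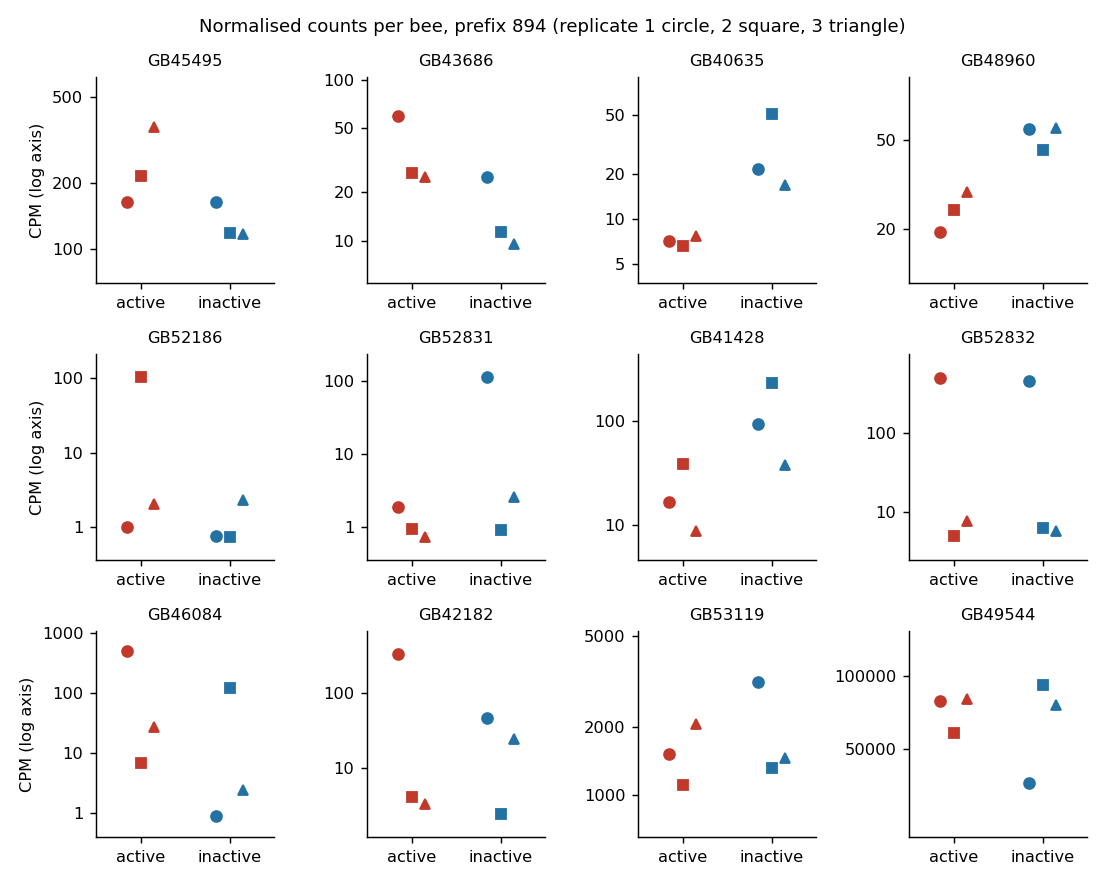
CPM (y axes, log scale) of 12 named genes in the 3 active and 3 inactive bees of prefix 894, with a marker shape for each replicate number, which pairs no bees. In the top row the groups do not overlap. GB52186, GB52831 and GB52832 are high in 1 bee or in 1 bee of each status, and GB49544 overlaps between statuses.

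The next question was whether the bees of prefix 894 followed, at a smaller size, the response of the other prefixes. The other 19 libraries, none of which belongs to prefix 894, gave 1497 genes higher (10.8% of 13922 tested) and 1199 lower (8.61%) with active ovaries (edgeR, prefix as a covariate, adjusted p under 0.05). Of the higher genes, 1456 were tested in prefix 894, where 1234 (84.8%) had a positive change, against 49.3% of all genes tested. Of the lower genes, 1185 were tested in 894, where 983 (83.0%) had a negative change, against 50.7% of all genes. These are counts of directions and not of calls, since 0 genes were called within 894. An unadjusted p under 0.05 in the direction of the list was reached by 33 higher genes (2.27%, against 0.573% of all genes) and 50 lower genes (4.22%, against 1.21%). The all-gene shares are a low base, since the 1.79% given above for both directions together is below a share of 0.05. The shares of the lists were not tested.

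The changes in these lists were smaller in prefix 894 than in the other prefixes. The median log2 change of the higher genes was 0.22 in prefix 894 and 1.03 in the fit of the other prefixes, a ratio of 0.216. For the lower genes the medians were -0.22 and -0.89, a ratio of 0.253. The list medians in prefix 875 lay between, at 0.47 and -0.49, and those in prefixes 882 (1.13 and -0.88) and 888 (1.45 and -1.34) were the largest. The values of 875, 882 and 888 helped to choose the lists and those of 894 did not. At least 2-fold changes in the direction of the list were rare in 894, with 51 of the higher genes (3.50%) and 15 of the lower genes (1.27%). All groups without overlap in the direction of the list numbered 80 higher (5.49%, against 2.04% of all genes) and 145 lower genes (12.2%, against 3.95%). For a gene unrelated to status, 1 of the 20 assignments of 3 bees against 3 gives no overlap in a given direction. The share of the higher genes lay near that level and that of the lower genes above it, while both all-gene shares lay below it. These shares were not tested.

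The shift of the higher genes depended on 1 bee. Without active replicate 1, their median log2 change in 894 was 0.03 and 55.6% were positive, against 46.5% of all genes tested. Without any other single bee the median was 0.17 to 0.32 and the positive share 76.0% to 87.2%. The lower genes depended most on inactive replicate 3, without which their median was -0.13 and 67.0% were negative. Without any other single bee it was -0.31 to -0.19 and the negative share 74.5% to 86.3%. With the 6 libraries thinned to equal totals the medians were 0.22 and -0.24.

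**Figure D4:**
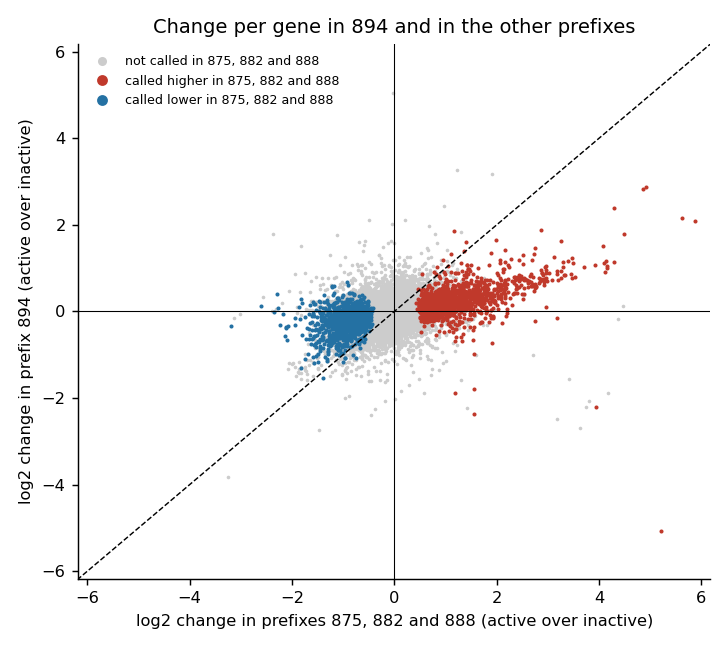
Log2 change with active over inactive ovaries in prefix 894 (y axis) against that in prefixes 875, 882 and 888 fitted together (x axis), 1 point per gene. The dashed line marks equal changes. Genes called higher (red) and lower (blue) in the other prefixes have medians of 1.03 and -0.89 on the x axis and of 0.22 and -0.22 on the y axis.

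Genes are not independent replicates, and the following values are across genes. The log2 changes of prefix 894 had a Pearson correlation of 0.411 with those of prefix 882 (12741 genes), 0.390 with those of 888 (13049 genes) and 0.194 with those of 875 (13104 genes). Among the other prefixes the correlation was 0.413 between 875 and 882, 0.282 between 875 and 888, and 0.732 between 882 and 888. No library enters both sides of any of these correlations. They are descriptions, with libraries of unequal depth on either side.

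A score per bee put the same lists on 1 scale, as the mean log2 CPM of the higher genes minus that of the lower genes. The active bees of prefix 894 scored -0.612, -1.18 and -1.24, and the inactive bees -1.10, -1.59 and -1.76. Inactive replicate 1 lay above 2 of the 3 active bees, and active replicate 1 was the highest. The difference of 0.471 (within-status SD 0.343) did not pass the exact permutation test (two-sided p = 0.3, where 0.1 is the smallest possible). It was 0.272 without active replicate 1 and 0.335 without inactive replicate 3 (exact permutation p = 0.6). Without inactive replicate 1 it was 0.660, the largest with a bee left out, and the remaining groups did not overlap (exact permutation p = 0.1). The active bees of prefix 894 scored below every active bee of the other prefixes (-0.533 to 1.37), and its inactive bees lay within the range of the other inactive bees (-2.41 to -0.777). The scores of the other prefixes describe the bees that chose the genes and carry no test.

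**Figure D5:**
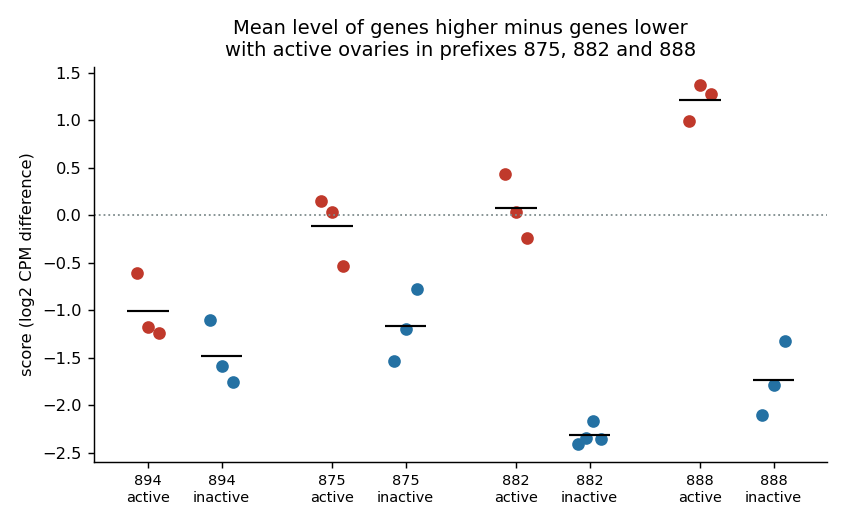
Score of each bee (y axis, mean log2 CPM of the genes called higher minus that of the genes called lower in prefixes 875, 882 and 888), by title prefix and ovary status, with group means as lines. In prefix 894 the means are -1.01 with active and -1.48 with inactive ovaries and the groups overlap.

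Genes called in the other prefixes, with the same direction in each, were taken by largest change and looked at singly. GB46084 was higher with active ovaries there by 5.88 (SE 1.41, edgeR adjusted p = 0.00839), while its 894 values, given above, yielded a log2 change of 2.09 (SE 2.47) that turned to -1.27 without active replicate 1. GB42182, placed at 941919 on Group1.1, was higher there by 5.62 (SE 1.68, edgeR adjusted p = 0.0269). Fitted alone, prefix 875 gave 0.20 for GB42182, against 7.38 in 882 and 6.66 in 888. In 882 the active bees ran from 3.58 to 907 CPM with a mean of 305 (SD 521), so 1 bee carried that mean. In 888 they ran from 632 to 1587 CPM. In 894 GB42182 had 322, 4.14 and 3.32 CPM with active and 46.4, 2.52 and 24.8 CPM with inactive ovaries. Active replicate 1 alone exceeded all 3 inactive bees. Its log2 change of 2.16 (SE 2.19) was -2.72 without that bee. On the lower side, GB53119, with a position at 132890 on scaffold Group4.5, changed there by -3.19 (SE 0.78, edgeR adjusted p = 0.00832). In 894 it had 1511, 1103 and 2053 CPM with active and 3135, 1322 and 1456 CPM with inactive ovaries, which overlap, with a log2 change of -0.34 (95% interval -1.15 to 0.46). GB42427 changed there by -2.60 (SE 0.58, edgeR adjusted p = 0.00479) and in 894 by 0.12 (95% interval -0.76 to 0.99), with 6.36, 16.2 and 15.2 CPM with active and 7.02, 15.1 and 12.8 CPM with inactive ovaries. For GB53119 and GB42427 the interval in 894 leaves out the change estimated in the other prefixes. The test of the difference passed for neither gene (edgeR adjusted p = 0.451 and 0.407). Both were chosen for their large changes in the other prefixes, and those estimates have standard errors of their own.

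A fit over the 25 libraries tested the difference itself. The change in 894 minus the mean change in 875, 882 and 888 was called in 0 of 13991 genes (0%; edgeR, smallest adjusted p = 0.359), with 1035 at an unadjusted p under 0.05. limma-voom called 0 and DESeq2 called 8. Among genes with an average log2 CPM of at least 4, the smallest p of this test belonged to GB45211 (difference 1.73, SE 0.37) and GB49397 (1.76, SE 0.47) on the higher side and to GB53606 (-1.20, SE 0.28) and GB52507 (-1.91, SE 0.45) on the lower side, with edgeR adjusted p of 0.359 to 0.407. Against single prefixes, a comparison chosen after these results were seen, edgeR called 0 genes against 875, 13 against 882 (0.0929%) and 40 against 888 (0.286%). All 13 had a lower change in 894 than in 882, and of the 40 the change in 894 was lower in 32 and higher in 8. These comparisons share the libraries of prefix 894. Each count was 0 or 1 when any of 4 libraries was left out, which were active replicates 2 and 3 and inactive replicates 1 and 3. Without active replicate 1 the counts were 69 and 72, and without inactive replicate 2 they were 13 against 882 and 1 against 888. By allele shares, 3 inactive libraries were less like the rest of their prefix, 1 of prefix 882 with a median correlation of 0.511 and 2 of prefix 888 with 0.578 and 0.547, against 0.644 to 0.793 for the other 22 libraries of the series. Without these 3 libraries, 59 genes were called against 882. That fit left 1 inactive bee in prefix 888, so no count against 888 is given.

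GB48899 was among the 13 genes. On the scale of all 25 libraries its levels in prefix 894 were 213, 46.7 and 51.9 CPM with active and 78.3, 21.9 and 43.7 CPM with inactive ovaries. In prefix 882 they were 495, 356 and 365 CPM with active and 2.17, 3.38, 2.04 and 1.70 CPM with inactive ovaries. All 6 bees of 894 thus lay between the statuses of 882. The log2 change was 1.13 (SE 0.69) in 894 and 7.48 (SE 0.35) in 882, and the difference was -6.33 (SE 1.12, edgeR adjusted p = 0.0384). GB47768 showed the same order, with 32.5, 11.4 and 14.97 CPM with active and 18.6, 7.88 and 13.0 CPM with inactive ovaries in 894, and with 65.2, 44.9 and 46.8 CPM with active and 5.72, 1.69, 3.55 and 3.70 CPM with inactive ovaries in 882. The difference was -3.26 (SE 0.57, edgeR adjusted p = 0.0384).

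Against prefix 888, GB53606 had 44.8, 32.7 and 33.1 CPM with active and 39.8, 35.0 and 36.6 CPM with inactive ovaries in 894, on the same scale. In 888 it had 89.98, 116 and 85.4 CPM with active and 21.5, 24.5 and 37.5 CPM with inactive ovaries. The log2 change in 894 was 0.01 (95% interval -0.49 to 0.50), and it differed from that in 888 by -1.80 (SE 0.34, edgeR adjusted p = 0.039). GB45211 went the other way in 888, with 66.2, 55.7 and 74.97 CPM with active and 450, 462 and 157 CPM with inactive ovaries. In 894 it stayed between 210 and 307 CPM in all 6 bees, a log2 change of 0.16 (95% interval -0.34 to 0.66), and the difference was 2.60 (SE 0.46, edgeR adjusted p = 0.039). Without the 3 inactive libraries that were less like their prefix, the differences were -1.37 for GB53606 and 1.42 for GB45211 (edgeR adjusted p = 0.309 for both).

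GB49544, a highly abundant gene, has positions at 420327 and 420372 on scaffold Group4.6. It had 79361, 58154 and 80919 CPM with active and 36429, 91805 and 76050 CPM with inactive ovaries on the scale of the 6 libraries. The active bees lay inside the range of the inactive ones, and the log2 change was 0.10 (SE 0.35, 95% interval -0.69 to 0.88, edgeR adjusted p = 0.999). It was -0.21 in 1 of the fits that leave out a bee, the fit without inactive replicate 1.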

How the data were processed

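RNA was sequenced from 25 workers, 6 of them with titles beginning with 894. Per the submitters' processing notes, the authors used TopHat and edgeR, with no versions named. The sources used here do not state genome build, annotation, counting tool or strand setting, so genes that overlap or have near-identical copies are uncertain. The deposited tables hold read counts, per gene and, for alleles, per position with a D and a Q count. These counts were assumed to be raw. Allele tables served for scaffold positions and D shares.

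Within prefix 894 the counts of the 6 libraries entered a robust quasi-likelihood F test after TMM scaling and filterByExpr (edgeR 4.0.16, R 4.3.3). A standard error is the size of the log2 change over the root of its F value, and 95% intervals use the t quantile on the total degrees of freedom. The other prefixes were fitted without 894, with prefix as a covariate. The difference was tested on 8 group means over all libraries. CPM use TMM-scaled library sizes of the 6 libraries, or of all 25 where stated, and log2 CPM a prior count of 2. DESeq2 1.42.0 and limma 3.58.1 were alternatives.

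Named genes needed an average log2 CPM of at least 4 in the fit that chose them. The rule took the 2 smallest p in each direction without overlap, the 2 largest changes in each direction and the 2 most variable genes. It also took the 2 largest changes in each direction among genes called in the other prefixes with the same direction in each. The 2 smallest p in each direction of the difference and GB49544 completed the set. Genes differing from 882 or 888 were chosen after their values were seen. The prefix and the lists were chosen with earlier results of these data known.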

Additional observations from a re-analysis of the deposited data

Results flagged for a closer look

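The effect of ovary status differed between prefix 894 and another prefix in 13 genes against 882 and in 40 against 888 (edgeR quasi-likelihood test of the difference, adjusted p under 0.05). Against 882, the difference was -3.26 on the log2 scale for GB47768 and -6.33 for GB48899. Against 888 it was 2.60 for GB45211, 3.21 for GB49397, -1.96 for GB40361, -1.80 for GB53606 and -2.60 for GB52507. GB40361 had 20.4, 14.7 and 13.2 CPM with active and 15.7, 17.1 and 14.5 CPM with inactive ovaries in 894, on the scale of all libraries, and 36.5, 49.1 and 45.1 CPM with active and 8.01, 11.6 and 12.9 CPM with inactive ovaries in 888. GB49397, with positions from 798781 to 810010 on scaffold Group12.16, had 126, 77.6 and 149 CPM with active and 56.8, 82.5 and 100.6 CPM with inactive ovaries in 894. In 888 it had 21.6, 27.6 and 25.8 CPM with active and 197, 216 and 54.2 CPM with inactive ovaries. Without the 3 inactive libraries less like their prefix, 0 genes were called against 888 and 59 against 882. The differences from 888 were then 1.68 for GB49397 and -1.71 for GB40361 (edgeR adjusted p = 0.309 for both). Both counts also depended on single bees of prefix 894, as described above. Groups of 3 were not tested for outlying samples.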

How the results depend on the processing

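The count of 0 calls within prefix 894 held under DESeq2 size factors, no filter, a spread shared by all groups, estimation that was not robust, limma-voom and thinned counts. DESeq2 called 3 genes, and leaving out a library gave 0 to 1. That 1 gene, GB55915, was not tested in the fit of 6 libraries. It had 2, 2 and 3 raw counts with active and 1, 219 and 28 with inactive ovaries. Genes at an unadjusted p under 0.05 numbered 132 with a shared spread and 193 to 530 with a library left out. Genes at least 2-fold apart numbered 920 with no filter, 472 with a shared spread and 308 to 741 with a library left out. With a library left out, the median absolute log2 change was 0.19 to 0.27, 5038 to 8603 intervals lay within 2-fold, the list medians were 0.03 to 0.32 and -0.31 to -0.13, the score difference 0.272 to 0.660 and the distance difference -0.086 to 0.042. The difference from the other prefixes was called in 8 genes by DESeq2 and in 0 under the other alternatives run. Genes called in the other prefixes numbered 1349 without the 3 inactive libraries less like their prefix, 4768 without prefix 875, 152 without 882 and 324 without 888. With these lists, the 894 medians stayed at 0.16 to 0.46 and -0.32 to -0.22. Against 882, 8 genes were called with DESeq2 size factors, 8 with no filter, 162 by DESeq2, 0 by limma-voom, 59 without the 3 libraries and 0 to 69 with a library left out. Against 888, the counts were 4 with DESeq2 size factors, 29 with no filter, 450 by DESeq2, 52 by limma-voom and 0 to 72 with a library left out. The cause of these moves was not tested. Among single genes, GB52832 reversed to -0.12 with limma-voom, and with a library left out its change ran from -4.57 to 4.82. Left-out ranges that cross 0 were -2.72 to 3.03 for GB42182, -1.27 to 6.90 for GB46084, -0.17 to 0.43 for GB42427, -0.59 to 0.15 for GB53119 and -0.21 to 0.38 for GB49544. No paired analysis was possible because the titles give active and inactive bees no shared replicate number. With counts thinned to the smallest total, 7097 intervals lay within 2-fold, against 7812 at full depth.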
